A study of Mus musculus with 30 samples.

Results

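The 6 genes described here, Fgf5, Otx2, Pou3f1, Zic2, Zic5 and Sox3, are genes used to mark the formative and primed epiblast. They were chosen by name and matched through their Ensembl identifiers, and all 6 were found among the 52630 genes of the time-course table and the 55487 genes of the passage table. RNA was sequenced from E14tg2a, a mouse embryonic stem cell (ESC) line grown with leukaemia inhibitory factor (LIF). In the first experiment, cells in Serum/LIF (given as 0 h) were compared with cells moved to Enhanced Metabolic Media (EMM) for 3, 9 and 24 h. In EMM, the glucose and pyruvate of the Serum/LIF medium are exchanged for galactose, so serum and LIF were shared by these groups. In the second experiment, cells were kept for 10 passages (P10) or 20 passages (P20) in Serum/LIF, in EMM or in 2i/LIF, a medium that inhibits the kinases MEK and GSK3. Each of the 10 groups had 3 libraries, 30 in all. Every library came from 1 cell line, so the values carry no spread between lines, and the labels do not say whether the P20 cultures continued the P10 cultures. The treatment label of the time course also speaks of 24 h in Serum/LIF, so how long the 0 h cells had been in fresh medium is not known.

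In the embryo, the naive epiblast of the blastocyst passes through a formative state to the primed epiblast of the egg cylinder before the germ layers form. Otx2 encodes a homeodomain factor and Pou3f1 (also called Oct6) a POU factor, and both are switched on early in this transition. Fgf5 encodes a secreted fibroblast growth factor and is the classical marker of the post-implantation epiblast. Zic2 and Zic5 encode zinc-finger factors, and Sox3 encodes an SRY-box factor of the SoxB1 group. FGF signalling through MEK and ERK drives the exit from the naive state, and MEK is one of the kinases that 2i/LIF inhibits.

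In GRCm38 with GENCODE M21, Fgf5 lies at chr5:98254184-98277030 on the plus strand with 2501 exonic bases. Otx2 lies at chr14:48657677-48673819 on the minus strand with 4221 exonic bases. Pou3f1 is a single-exon gene at chr4:124656807-124660655 on the plus strand with 3849 exonic bases. Sox3 is a single-exon gene at chrX:60891366-60893430 on the minus strand with 2065 exonic bases. Zic5, at chr14:122456795-122465677 on the minus strand with 4889 exonic bases, and Zic2, at chr14:122475435-122479852 on the plus strand with 2880 exonic bases, are neighbours transcribed away from each other, with 9757 bases between them. Antisense RNA genes overlap exons of Otx2 (Otx2os1, 154 bases) and Pou3f1 (Gm2164, 330 bases), and a gene of the same strand, Gm49154, overlaps Otx2 exons by 168 bases. The strand setting used in counting is not given in the sources used here, so reads from these stretches cannot be assigned with certainty.

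Promoter sequences, from 250 bases before to 50 after an annotated start, were matched for 3 of the 6 genes in the RefSeq table (GRCm38.p6). These 3 are the ones shown, as they are the ones matched. Fgf5 is at chr5:98253934-98254233 on the plus strand (68.3% GC, 29 CpG). Of 4 windows for Otx2, the one at chr14:48665060-48665359 on the minus strand (51% GC, 16 CpG) is given. Zic5 is at chr14:122465609-122465908 on the minus strand (62.7% GC, 15 CpG). Capitals mark the only match to the motifs searched.
Fgf5: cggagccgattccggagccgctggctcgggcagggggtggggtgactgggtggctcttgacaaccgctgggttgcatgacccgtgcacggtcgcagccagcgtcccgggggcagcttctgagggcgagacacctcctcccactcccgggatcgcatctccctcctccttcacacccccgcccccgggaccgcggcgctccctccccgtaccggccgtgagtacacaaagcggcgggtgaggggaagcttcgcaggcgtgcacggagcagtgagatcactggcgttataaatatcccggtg
Otx2: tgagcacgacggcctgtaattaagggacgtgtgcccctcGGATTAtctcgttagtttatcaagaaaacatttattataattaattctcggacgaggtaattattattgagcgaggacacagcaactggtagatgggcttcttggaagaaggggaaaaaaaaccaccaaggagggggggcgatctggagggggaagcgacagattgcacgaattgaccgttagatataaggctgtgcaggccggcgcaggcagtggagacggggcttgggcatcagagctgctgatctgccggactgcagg
Zic5: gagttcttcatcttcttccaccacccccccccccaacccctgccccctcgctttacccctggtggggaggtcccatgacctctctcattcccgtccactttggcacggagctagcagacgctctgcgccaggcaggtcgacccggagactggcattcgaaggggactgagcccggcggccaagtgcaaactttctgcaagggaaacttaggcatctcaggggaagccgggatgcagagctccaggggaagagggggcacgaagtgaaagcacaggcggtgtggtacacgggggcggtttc
Both strands of the 6 windows were searched for an OTX core (TAATCC), an octamer (ATGCAAAT), a SOX core (ACAATG) and a ZIC core (CAGCAGG). The single match was the OTX core on the strand opposite to transcription in the Otx2 window, beginning at position -211 relative to the start. Of 32851 promoters of this length, 7.06% held the OTX core, 1.74% the octamer, 12.6% the SOX core and 10.5% the ZIC core. A match is a description of letters and not of binding.

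Total counts per library ran from 24074132 to 35301962 in the time course and from 6944904 to 27912928 in the passages. The Serum/LIF cells expressed all 6 genes. Comparing genes per length, in TPM (counts scaled to exonic length and library), Pou3f1 was the highest of them at 0 h (44.6 ± 2.22, SD, n = 3), followed by Zic2 (31.4 ± 1.48), Otx2 (20.8 ± 0.23), Sox3 (15.2 ± 1.98), Zic5 (13.0 ± 0.426) and Fgf5 (10.8 ± 0.83). All values that follow are CPM, read counts scaled to library size with the trimmed mean of M-values (TMM), unless TPM is named. Folds are log2 fold changes from edgeR's quasi-likelihood fit. Their standard error (SE) was worked back from the fold and the F statistic of the test. It is too small where counts are few, as for Pou3f1 in 2i/LIF. A gene rose or fell where the Benjamini-Hochberg adjusted p over all tested genes was under 0.01. All 6 genes passed the filter on low counts in both tables, Fgf5 and Pou3f1 in the passages through the groups outside 2i/LIF.

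In 4 groups, 1 library stood apart from the other 2 by the chi-square of their counts per gene, a measure that grows with depth. Replicate 1 of P20 2i/LIF, the shallowest library of the series, gave 57.6 and 49.6 against 14.7 between the others, and replicate 1 of P10 2i/LIF gave 20.4 and 30.1 against 6.52. In the time course, replicate 3 of EMM 9 h gave 10.6 and 11.5 against 2.5, and replicate 1 of EMM 24 h gave 14.1 and 12.5 against 2.89. Without any 1 of these libraries, the number of the 6 genes past the test in each comparison that used it was as with all libraries, apart from P20 2i/LIF against P20 Serum/LIF (4 in place of 5, Zic2 lost) and EMM 9 h against EMM 3 h (4 in place of 5, Otx2 lost).

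After 1 day of EMM, 5 of the 6 genes were lower than in Serum/LIF, and Fgf5 was the exception. At 24 h, Zic2 had the deepest fall, to a ratio of 0.309 of Serum/LIF, while Fgf5 stood at 1.06 of its 0 h level. The 5 of 6 stand beside 44.0% of 16049 tested genes that changed in either direction at 24 h, and 22.2% that fell. When the log2 fold change also had to exceed 1 in size, 3 of 6 fell at 24 h, beside 4.69% of tested genes, and 0 of 6 at 9 h, beside 3.50%. Since these are RNAs from whole cultures, fewer cells expressing a gene and less RNA per cell cannot be told apart.

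**Figure D1:**
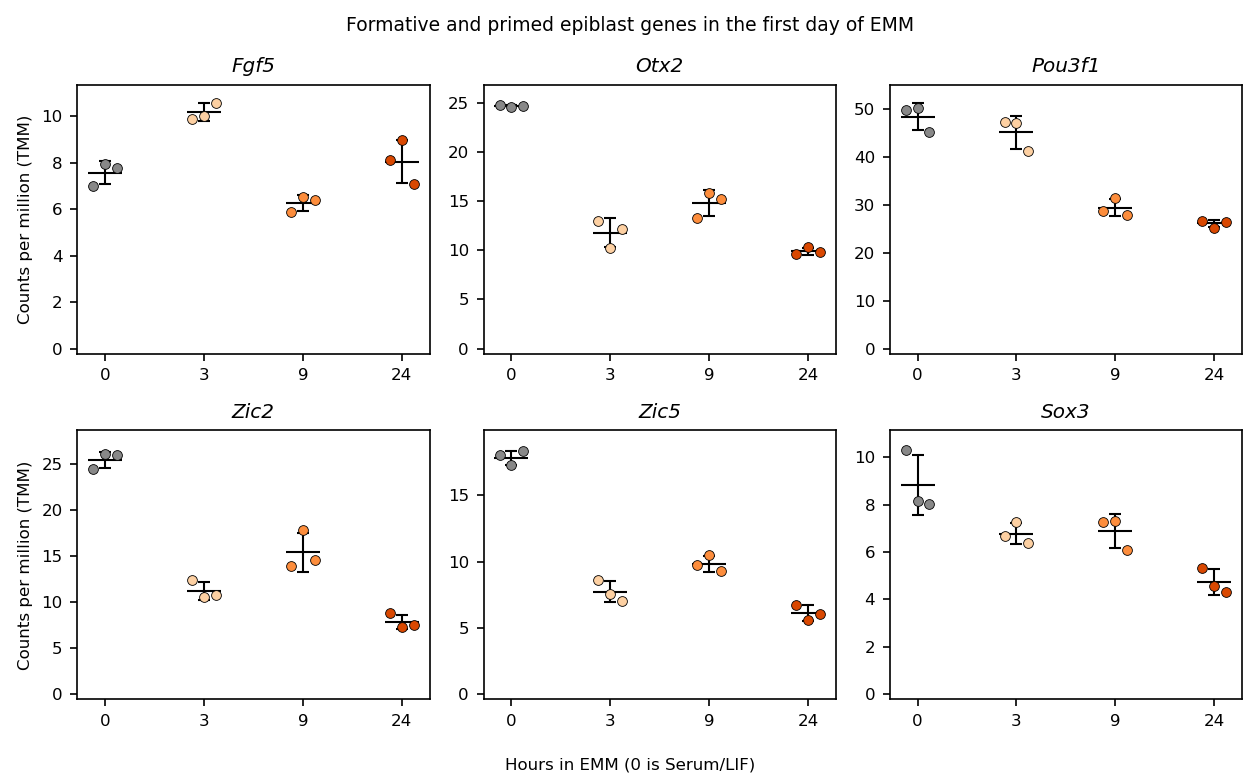
CPM of each gene in the 12 time-course libraries, by hours in EMM, with 0 h in Serum/LIF. Points are libraries, bars the mean and error bars the SD of 3 libraries. Otx2, Zic2 and Zic5 dropped by 3 h, came part of the way back at 9 h and were lowest at 24 h, while Fgf5 was highest at 3 h.

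Otx2, Zic2 and Zic5 moved in the same order through the day. Otx2 read 24.8, 24.6 and 24.7 CPM at 0 h, 13.0, 10.2 and 12.2 at 3 h, 13.3, 15.8 and 15.2 at 9 h, and 9.62, 10.3 and 9.81 at 24 h. Zic2 read 24.4, 26 and 25.9 at 0 h, 12.4, 10.5 and 10.8 at 3 h, 13.9, 17.8 and 14.5 at 9 h, and 8.77, 7.3 and 7.48 at 24 h. Zic5 read 18, 17.3 and 18.3 at 0 h, 8.64, 7.54 and 7.04 at 3 h, 9.74, 10.5 and 9.26 at 9 h, and 6.74, 5.57 and 6.05 at 24 h. For these 3 genes the libraries of neighbouring times did not overlap. At 3 h, where 34.5% of tested genes changed, the falls were -1.06 (SE 0.08, edgeR adjusted p = 8.84e-08) for Otx2, -1.19 (SE 0.10, edgeR adjusted p = 1.23e-07) for Zic2 and -1.21 (SE 0.09, edgeR adjusted p = 3.5e-08) for Zic5. At 24 h the falls had reached -1.32 (SE 0.08) for Otx2, -1.69 (SE 0.10) for Zic2 and -1.54 (SE 0.09) for Zic5. Among all tested genes these 24 h values stood at percentiles 3.1, 1.6 and 2.08.

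Between the fall at 3 h and the fall at 24 h, the same 3 genes came part of the way back. From 3 h to 9 h, Zic2 rose by 0.46 (SE 0.10, edgeR adjusted p = 0.00154), Zic5 by 0.35 (SE 0.09, edgeR adjusted p = 0.00571) and Otx2 by 0.32 (SE 0.08, edgeR adjusted p = 0.00719). Over the same interval Fgf5 fell by 0.70 (SE 0.09) and Pou3f1 fell by 0.62 (SE 0.06), so 5 of 6 changed, beside 26.5% of all tested genes. The calls of the 3 rises changed with 1 library left out, while the rises themselves stayed positive and the 2 falls stayed past the test. Zic2 lost its call without EMM 3 h replicate 3 (0.43, edgeR adjusted p = 0.01). Zic5 lost it without EMM 3 h replicate 2 or 3 or EMM 9 h replicate 1 or 2 (0.28 to 0.36), and Otx2 without EMM 3 h replicate 2 or 3 or EMM 9 h replicate 2 or 3 (0.24 to 0.35). The count of 5 dropped to 3, 2 and 3 without EMM 3 h replicate 2, EMM 3 h replicate 3 and EMM 9 h replicate 2. From 9 h to 24 h, 4 of 6 fell, beside 13.0% of tested genes changed and 6.02% lower. These were Zic2 (-0.97, SE 0.10), Zic5 (-0.68, SE 0.09), Otx2 (-0.57, SE 0.09) and Sox3 (-0.54, SE 0.12). The fall of Sox3 in this interval lost its call without EMM 9 h replicate 1 or 2 or EMM 24 h replicate 2 or 3.

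Pou3f1 was slower. It read 49.8, 50.1 and 45.1 CPM at 0 h, 47.2, 47.0 and 41.1 at 3 h, 28.7, 31.4 and 27.9 at 9 h, and 26.6, 25.2 and 26.4 at 24 h. The 0 h and 3 h libraries overlapped (-0.10, SE 0.06, edgeR adjusted p = 0.215), and those of 9 h and 24 h lay below both. Pou3f1 fell by 0.72 (SE 0.07) at 9 h, when 4 of the 6 genes fell, beside 38.2% of tested genes changed and 19.7% lower, and by 0.89 (SE 0.07, edgeR adjusted p = 3.15e-08) at 24 h. Sox3 read 10.3, 8.15 and 8.03 at 0 h, 6.69, 7.26 and 6.4 at 3 h, 7.28, 7.31 and 6.07 at 9 h, and 5.33, 4.57 and 4.31 at 24 h. Its EMM libraries all lay below those of Serum/LIF, and the values of -0.38 (SE 0.11, edgeR adjusted p = 0.0127) at 3 h and -0.35 (SE 0.11, edgeR adjusted p = 0.0176) at 9 h missed the threshold. At 24 h Sox3 fell by 0.89 (SE 0.12, edgeR adjusted p = 1.41e-05).

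Fgf5, the ligand, took another course. It read 7.01, 7.95 and 7.76 CPM at 0 h, 9.89, 10.0 and 10.6 at 3 h, 5.87, 6.54 and 6.42 at 9 h, and 8.11, 8.97 and 7.1 at 24 h. The 3 h libraries were above all others, and those of 24 h overlapped those of 0 h. Fgf5 rose by 0.42 at 3 h (SE 0.09, edgeR adjusted p = 0.00117), the only rise among the 4 changes of the 6 genes at that time. At 9 h it was at -0.27 (SE 0.09, edgeR adjusted p = 0.0241) and at 24 h at 0.09 (SE 0.09, edgeR adjusted p = 0.451).

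In long-term culture, the 6 genes stood in different relations to Serum/LIF at P10 and at P20. At P10, 4 of 6 were lower in EMM than in Serum/LIF and none was higher, beside 37.4% of 16054 tested genes changed in either direction (18.7% lower). At P20, 2 of 6 were higher and none lower, beside 26.0% changed (13.6% higher). The lower genes at P10 were Pou3f1, Fgf5, Zic5 and Zic2, and the higher genes at P20 were Fgf5 and Otx2. The passage table was made apart from the time-course table, and levels are not compared between them.

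**Figure D2:**
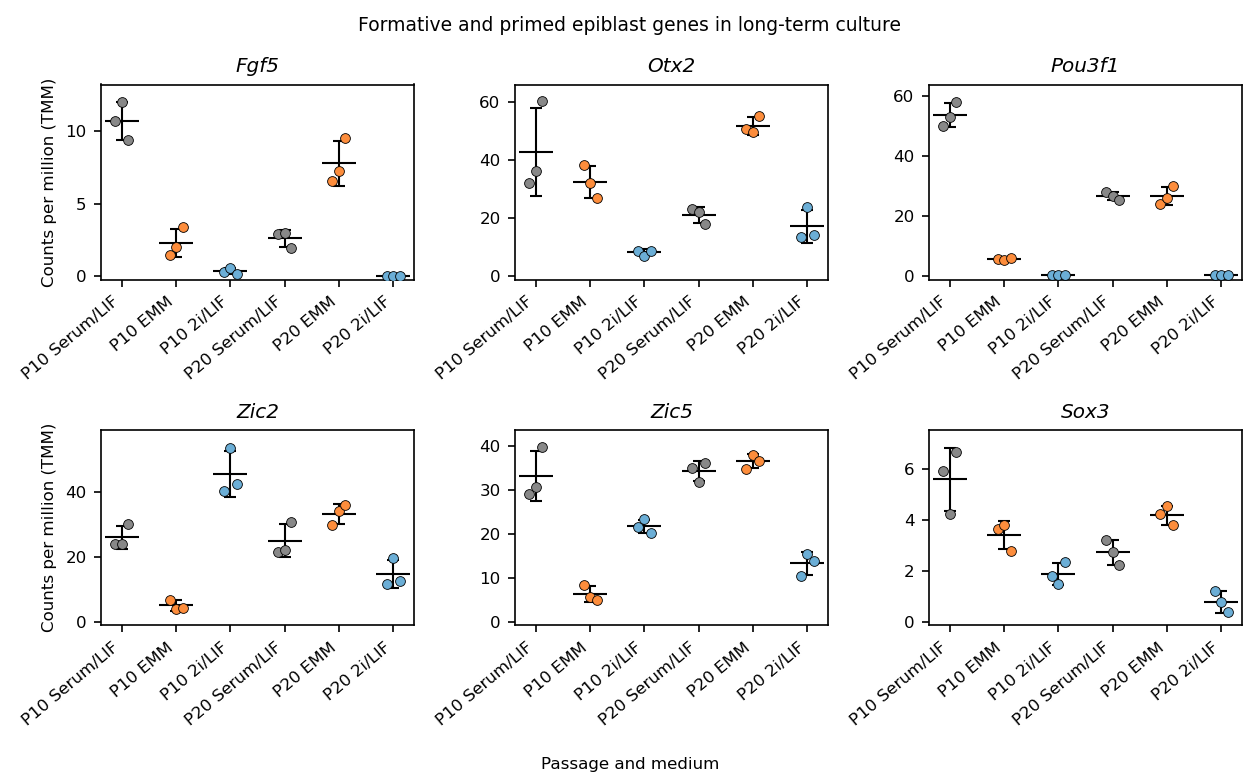
CPM of each gene in the 18 passage libraries, by passage and medium. Points are libraries, bars the mean and error bars the SD of 3 libraries. Pou3f1 and Fgf5 are near 0 in 2i/LIF at both passages, and Zic2 and Zic5 are lowest in P10 EMM.

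Fgf5 turned over between the passages. In Serum/LIF it read 10.7, 12 and 9.42 CPM at P10 and 2.89, 2.98 and 1.92 at P20, and in EMM it read 1.44, 2.0 and 3.38 at P10 and 6.56, 7.24 and 9.53 at P20. In 2i/LIF it had 3, 6 and 3 counts at P10 and 0 in all 3 libraries at P20. EMM lay wholly below Serum/LIF at P10 and wholly above it at P20, and 2i/LIF lay below both media each time. EMM differed from Serum/LIF by -2.34 (SE 0.30, edgeR adjusted p = 7.79e-06) at P10. At P20 it differed by 1.56 (SE 0.28, edgeR adjusted p = 0.000328). Tested directly, the P20 value exceeded that of P10 by 3.90 (SE 0.41, edgeR adjusted p = 3.76e-06). Against a floor of 3 counts per library, Fgf5 at P20 was at least 30-fold higher in EMM than in 2i/LIF, and at least 10-fold lower in 2i/LIF than in Serum/LIF. The floor covers counting error only.

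Otx2 was not called between EMM and Serum/LIF at P10 and was higher in EMM at P20. In Serum/LIF it read 32.1, 36.1 and 60.3 CPM at P10 and 23.0, 22.2 and 17.8 at P20, in EMM 38.2, 32.2 and 27.0 at P10 and 50.6, 49.6 and 55.4 at P20, and in 2i/LIF 8.75, 6.89 and 8.77 at P10 and 13.4, 23.9 and 14.2 at P20. Replicate 3 of P10 Serum/LIF stood above the other libraries of its group. EMM and Serum/LIF overlapped at P10 (-0.38, SE 0.22, edgeR adjusted p = 0.156) and did not at P20, where Otx2 was higher in EMM by 1.30 (SE 0.22, edgeR adjusted p = 0.000128). Of the 6 genes, Otx2 alone was called higher in P20 than in P10 2i/LIF (1.10, SE 0.25, edgeR adjusted p = 0.00166), and at P20 its 2i/LIF and Serum/LIF libraries overlapped (-0.26, SE 0.23, edgeR adjusted p = 0.342). That rise was lost without P10 2i/LIF replicate 2 or P20 2i/LIF replicate 2.

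Pou3f1 was well detected in Serum/LIF and had only a few counts per library in 2i/LIF. It read 50.1, 53.2 and 58.0 CPM in P10 Serum/LIF, 5.67, 5.39 and 5.87 in P10 EMM, and 0.201, 0.465 and 0.418 in P10 2i/LIF. At P20 it read 27.9, 26.6 and 25.5 in Serum/LIF, 24.0, 26.1 and 30.0 in EMM, and 0.151, 0.426 and 0.368 in 2i/LIF. The 3 media were fully apart at P10, while at P20 EMM and Serum/LIF overlapped and 2i/LIF stayed near 0. EMM was below Serum/LIF by -3.25 (SE 0.13, edgeR adjusted p = 1.24e-12) at P10, and the difference at P20 was 0.00 (SE 0.11, edgeR adjusted p = 0.994), with a sign that changed with the scaling of the libraries. The change between passages was itself 3.25 (SE 0.17, edgeR adjusted p = 2.04e-10). In 2i/LIF, with 1 to 9 counts per library, Pou3f1 was below Serum/LIF by -7.13 (SE 0.18) at P10 and -6.18 (SE 0.19) at P20. At so few counts these SEs understate the uncertainty of the folds.

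Zic2 and Zic5, the neighbouring genes, were both lowest in P10 EMM, and they differed in P10 2i/LIF. Zic2 read 24.1, 23.9 and 30.2 CPM in P10 Serum/LIF, 6.85, 4.0 and 4.26 in P10 EMM, and 40.4, 53.9 and 42.6 in P10 2i/LIF. Zic5 read 29.2, 30.8 and 39.8 in P10 Serum/LIF, 8.39, 5.69 and 4.99 in P10 EMM, and 21.5, 23.3 and 20.3 in P10 2i/LIF. Zic2 was thus highest in 2i/LIF and Zic5 highest in Serum/LIF, with no overlap between media. In EMM both were below Serum/LIF, by -2.29 (SE 0.23, edgeR adjusted p = 1.75e-07) and -2.32 (SE 0.17, edgeR adjusted p = 4.01e-09). In P10 2i/LIF, Zic2 was higher than in Serum/LIF by 0.81 (SE 0.19, edgeR adjusted p = 0.00121) and Zic5 lower by -0.62 (SE 0.15, edgeR adjusted p = 0.00156), and the call of Zic5 was lost without P10 2i/LIF replicate 3 or P10 Serum/LIF replicate 3.

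By P20 the EMM libraries of both genes overlapped those of Serum/LIF. Zic2 read 21.7, 22.3 and 30.9 CPM in P20 Serum/LIF, 30.0, 34.2 and 36.1 in P20 EMM, and 11.7, 19.6 and 12.7 in P20 2i/LIF. Zic5 read 35, 31.9 and 36.2 in P20 Serum/LIF, 34.9, 38.1 and 36.7 in P20 EMM, and 10.4, 15.4 and 13.9 in P20 2i/LIF. For both genes EMM and Serum/LIF overlapped, and 2i/LIF lay below. The P20 differences of EMM from Serum/LIF were 0.43 (SE 0.19, edgeR adjusted p = 0.0806) for Zic2 and 0.09 (SE 0.14, edgeR adjusted p = 0.644) for Zic5. The P20 value exceeded the P10 value by 2.72 (SE 0.30) for Zic2 and 2.41 (SE 0.22) for Zic5. Against 2i/LIF the 2 genes changed sides, from lower in EMM at P10 (Zic2 -3.10, SE 0.23; Zic5 -1.70, SE 0.17) to higher at P20 (Zic2 1.15, SE 0.20; Zic5 1.43, SE 0.15). The lower value of Zic2 in P20 2i/LIF than in P20 Serum/LIF (-0.72, SE 0.20, edgeR adjusted p = 0.00483) was lost without P20 2i/LIF replicate 1 or 3 or P20 Serum/LIF replicate 3.

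Sox3 had low levels throughout the passages and passed the test against 2i/LIF in EMM only at P20. It read 5.93, 4.26 and 6.67 CPM in P10 Serum/LIF, 3.66, 3.8 and 2.79 in P10 EMM, and 1.81, 1.49 and 2.35 in P10 2i/LIF. At P20 it read 3.23, 2.75 and 2.25 in Serum/LIF, 4.23, 4.55 and 3.81 in EMM, and 1.2, 0.758 and 0.368 in 2i/LIF. The libraries of EMM lay below Serum/LIF at P10 and above it at P20 without overlap, yet neither difference passed the test (P10 -0.70, SE 0.26, edgeR adjusted p = 0.0338, and P20 0.61, SE 0.26, edgeR adjusted p = 0.0684). Sox3 was lower in 2i/LIF than in Serum/LIF at both passages, by -1.54 (SE 0.27) and -1.96 (SE 0.33). The medians of all tested genes on the X chromosome, where Sox3 lies, ran from -0.19 to 0.24 over the passage comparisons.

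**Figure D3:**
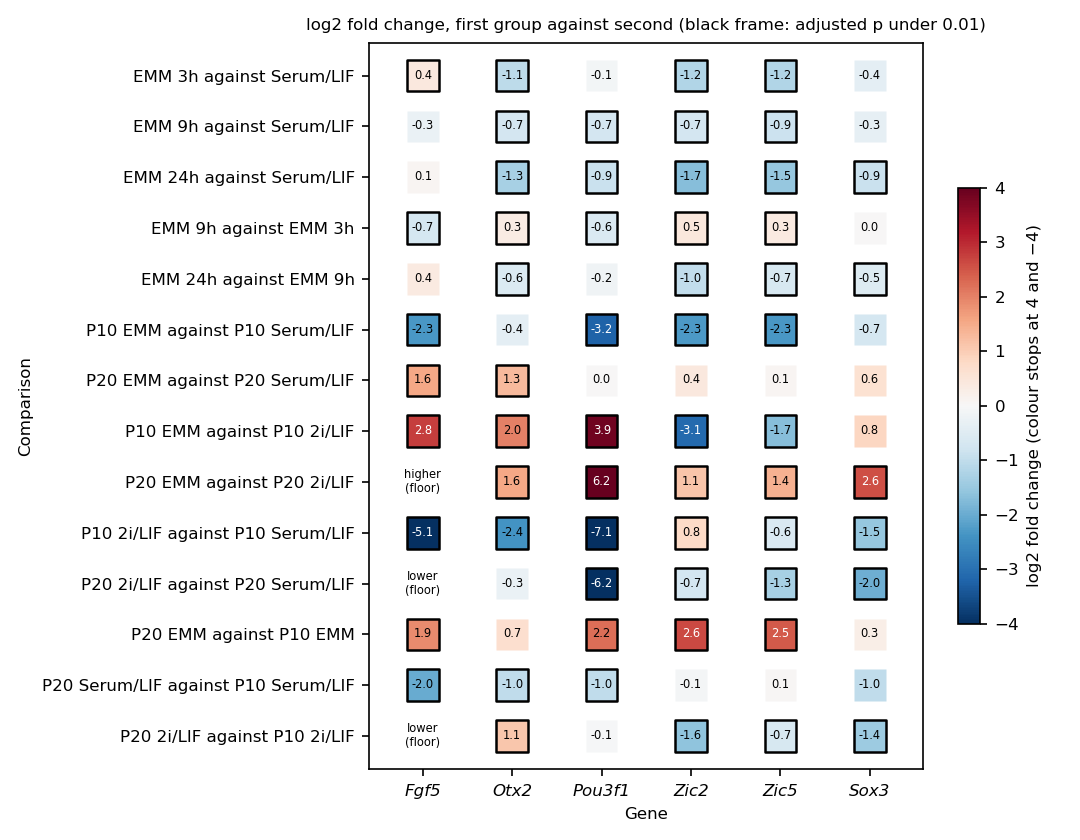
log2 fold changes of the 6 genes (columns) in the 14 comparisons of 2 groups (rows), with red for higher and blue for lower in the first group, and a black frame where the adjusted p was under 0.01. Cells marked floor are Fgf5 against P20 2i/LIF, where all 3 libraries had 0 counts. The P10 and P20 rows of EMM against Serum/LIF are blue and red, with Pou3f1 and Zic5 near 0 at P20.

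Against 2i/LIF, EMM held more of some of these RNAs and less of others at P10, and more of all 6 at P20. At P10, 3 of 6 were higher (Pou3f1 3.88, SE 0.23; Fgf5 2.75, SE 0.46; Otx2 2.00, SE 0.24) and 2 lower, beside 45.1% of tested genes changed. At P20 all 6 were higher, beside 48.6% changed and 25.7% higher, with Pou3f1 at 6.18 (SE 0.19), Sox3 at 2.57 (SE 0.31) and Otx2 at 1.56 (SE 0.22). The SEs of Pou3f1 at P10 and P20 are understated, since it had only a few counts in 2i/LIF. In 2i/LIF against Serum/LIF, 6 of 6 differed at P10 (52.0% of tested genes) and 5 of 6 at P20 (44.2%). Both media comparisons at a passage share their 2i/LIF or Serum/LIF libraries.

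Within each medium, passage went with different changes. From P10 to P20 in EMM, 4 of 6 rose (Zic2 2.65, SE 0.22; Zic5 2.45, SE 0.17; Pou3f1 2.24, SE 0.13; Fgf5 1.88, SE 0.30) and none fell, beside 25.3% of tested genes changed and 13.3% higher. Otx2 was higher in all 3 P20 EMM libraries and missed the threshold (0.66, SE 0.21, edgeR adjusted p = 0.0207). It passed with the Wald test of DESeq2 (adjusted p = 0.00857), without the low-count filter (edgeR adjusted p = 4.13e-07) and with only the groups compared (edgeR adjusted p = 0.000982). In Serum/LIF, 3 of 6 fell and none rose, beside 6.01% of tested genes changed and 2.85% lower. They were Fgf5 (-2.02, SE 0.28, edgeR adjusted p = 0.000217), Pou3f1 (-1.01, SE 0.11, edgeR adjusted p = 1.04e-05) and Otx2 (-1.02, SE 0.22, edgeR adjusted p = 0.00466). The fall of Otx2 lost its call without P10 Serum/LIF replicate 3, the library with 60.3 CPM (-0.70, SE 0.19, edgeR adjusted p = 0.0295), and without any 1 of the P20 Serum/LIF libraries. Sox3 was lower in all 3 P20 libraries by a like amount and missed the threshold (-1.03, SE 0.26, edgeR adjusted p = 0.0128), which it passed with the Wald test of DESeq2 (adjusted p = 0.00125), without the low-count filter (edgeR adjusted p = 0.00348) and with only the groups compared (edgeR adjusted p = 0.00562). Zic2 and Zic5 overlapped between the passages (-0.07, SE 0.19, and 0.05, SE 0.15). In 2i/LIF, 5 of 6 changed, beside 28.3% of tested genes, with Zic2 (-1.60, SE 0.20), Sox3 (-1.45, SE 0.34), Zic5 (-0.67, SE 0.16) and Fgf5 (at least 1.31-fold) lower and Otx2 higher. The call of Fgf5 rests on 3, 6 and 3 counts at P10 against 0 at P20, in a gene that passed the filter through groups outside 2i/LIF. The count of 5 was 2 to 3 without 1 of P10 2i/LIF replicate 2, P20 2i/LIF replicate 2 or P20 2i/LIF replicate 3, and Fgf5 lost its call each time.

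The difference between EMM and Serum/LIF changed from P10 to P20 for 5 of the 6 genes, all upward, beside 14.7% of tested genes and 8.28% upward. Otx2 was the smallest of these (1.68, SE 0.31, edgeR adjusted p = 0.000542), and Sox3 missed the threshold (1.31, SE 0.37, edgeR adjusted p = 0.0134). Sox3 passed with the Wald test of DESeq2 (adjusted p = 0.00316), without the low-count filter (edgeR adjusted p = 0.00639) and with only the groups compared (edgeR adjusted p = 0.00288). It also passed without P10 Serum/LIF replicate 2 (edgeR adjusted p = 0.00956). Within EMM, Fgf5, Pou3f1, Zic2 and Zic5 rose, and within Serum/LIF, Fgf5, Otx2 and Pou3f1 fell, as given above. Otx2 was also higher in P20 than in P10 EMM, short of the threshold (0.66, SE 0.21, edgeR adjusted p = 0.0207). Between EMM and 2i/LIF, 5 of 6 changed upward, beside 32.3% of tested genes, and Otx2 did not pass (-0.44, SE 0.33, edgeR adjusted p = 0.283). Without P10 2i/LIF replicate 3 this count was 3, with Pou3f1 and Sox3 lost. Between 2i/LIF and Serum/LIF, 2 of 6 changed, beside 20.0% of tested genes, with Otx2 upward (2.12, SE 0.33) and Zic2 downward (-1.53, SE 0.28).

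The order of the genes per length differed between media. In P20 EMM, Otx2 (39.3 ± 1.85 TPM, n = 3) and Zic2 (37.1 ± 2.78) led and differed by less than the SD of Zic2, followed by Zic5 (23.9 ± 0.858) and Pou3f1 (22.2 ± 2.13), which differed by less than the SD of Pou3f1, Fgf5 (9.93 ± 1.8) and Sox3 (6.51 ± 0.645). In P10 EMM, Otx2 (22.9 ± 4.71) was several times above the others, which ran from 2.67 ± 1.08 (Fgf5) to 5.22 ± 1.8 (Zic2). In P10 2i/LIF, Zic2 led with 49.0 ± 7.73, and Fgf5 (0.419 ± 0.252) and Pou3f1 (0.29 ± 0.112) were last, with 3 to 6 and 2 to 8 counts per library and a difference smaller than the SD of Fgf5.

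Other genes of the formative and primed epiblast were described through a list of 18, all of which passed the filter. At 24 h of EMM, 14 fell and 1 rose (median -0.70, beside 0.00 over all tested genes, of which 44.0% changed), with Lef1, a Wnt effector, at -2.32 (SE 0.17), Dnmt3a and Dnmt3b, the de novo DNA methyltransferases, at -1.66 (SE 0.05) and -1.47 (SE 0.03), and Cdh2 (N-cadherin) rising by 0.32 (SE 0.06). In P10 EMM, 12 lay below and 3 above Serum/LIF (median -1.33, beside 0.01 and 37.4% changed), with Pim2, a kinase, at -2.74 (SE 0.13) and Etv4, an ETS factor, at 1.07 (SE 0.13). At P20, 4 were lower and 3 higher (median 0.01, beside -0.00 and 26.0% changed), with Pim2 at 1.07 (SE 0.12) and Fst (follistatin), an inhibitor of activin, at -1.10 (SE 0.25). From P10 to P20 in EMM, 9 rose and 1 fell (median 0.57, beside 0.04, and 25.3% of tested genes changed), led by Lef1 (2.38, SE 0.16) and Pim2 (2.34, SE 0.13), and Etv4 fell by 1.22 (SE 0.13). Against 2i/LIF, EMM was above for 13 and below for 4 at P10 (median 1.16, beside 0.01 and 45.1% changed), against 14 and 1 at P20 (median 2.60, beside 0.02 and 48.6% changed).

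**Figure D4:**
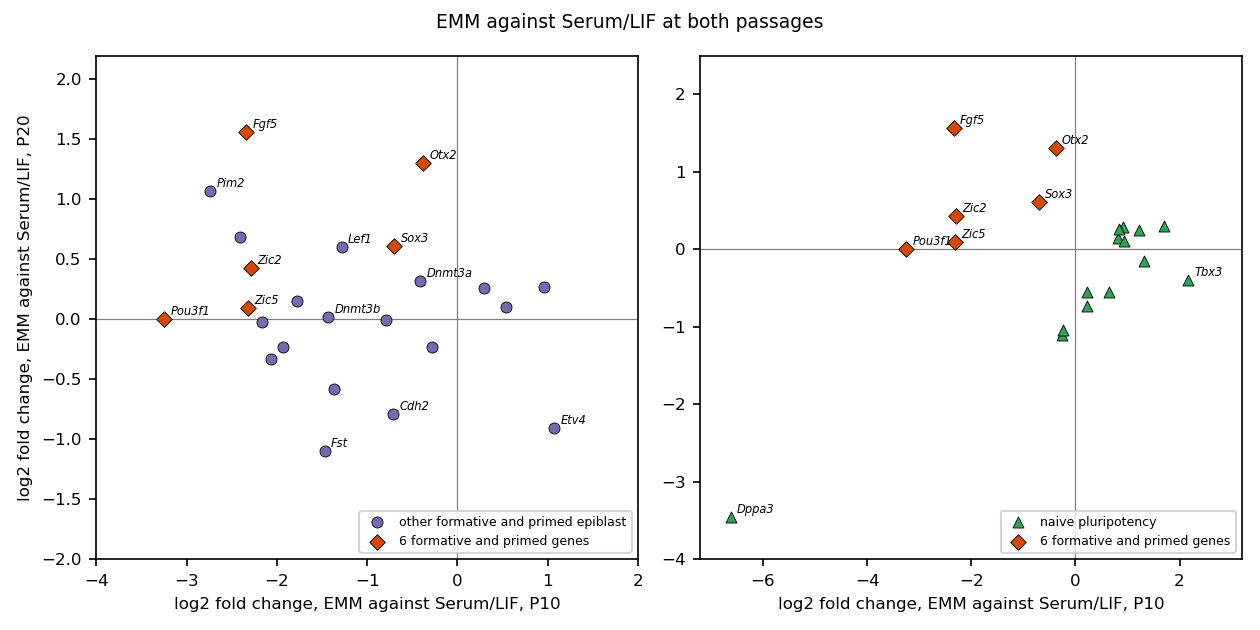
log2 fold change of EMM against Serum/LIF at P10 (horizontal) and P20 (vertical) for the 6 genes (diamonds) beside the 18 other formative and primed epiblast genes (circles, left) and the 14 naive pluripotency genes (triangles, right), with labels on genes described in the text. Fgf5 lies at -2.34 and 1.56 and Pim2 at -2.74 and 1.07, while Tbx3 lies at 2.16 and -0.40.

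In the naive pluripotency list of 14, the difference between EMM and Serum/LIF moved downward from P10 to P20 for 12 genes and upward for none (median -0.84, beside -0.01 over all tested genes, of which 14.7% changed). At 24 h, 7 rose and 2 fell (median 0.18, beside 0.00 and 44.0% changed). In P10 EMM, 9 exceeded their Serum/LIF level and 1 lay below it (median 0.83, beside 0.01 and 37.4% changed), against 1 and 7 in P20 EMM (median -0.27, beside -0.00 and 26.0% changed). Tbx3, a naive factor, had the largest rise at P10 (2.16), and Dppa3, a germ cell and naive marker, was lower at P10 (-6.62, 0.482 against 44.5 CPM) and P20 (-3.46). Of the core list of 4, 3 were higher and Lin28a, an RNA-binding protein gene, was lower (-0.42, SE 0.10) in P10 EMM than in Serum/LIF, and 2 were higher at P20, Lin28a among them (0.63, SE 0.10). Pou5f1, which encodes Oct4, stood at 1149 CPM in P10 Serum/LIF and 1754 in P10 EMM (0.61, higher), and at 1149 and 1150 at P20. All 4 core genes, the markers of the ESC label, were above the floor in every group, with sums of 1634 to 3241 CPM over the passage libraries. Over 11 FGF ligands, receptors and ERK feedback genes, Fgf5 included, EMM stood above Serum/LIF for 5 and below it for 5 at P10 (median -0.55, beside the same 0.01 and 37.4%), against 7 and 1 at P20 (median 0.28, beside -0.00 and 26.0%). Fgf8, a ligand, was lowest against Serum/LIF at both (-3.75, SE 0.53, and -2.78, SE 0.45). The receptor gene Fgfr2 went from -2.90 (SE 0.18) to 1.08 (SE 0.15), and Spry4, an ERK feedback inhibitor, was higher at both (2.45, SE 0.11, and 1.12, SE 0.10). At 24 h this list had 4 higher and 4 lower (median 0.09, beside 0.00 and 44.0%), with Fgf15, a ligand of the same family as Fgf5, at -2.26 (SE 0.11).

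Of 15 genes of the Zic, SoxB1, Pou3f and Otx families, 12 passed the filter in the time course and 9 in the passages, the members included. Sox1, a neural SoxB1 gene, was higher in EMM than in Serum/LIF at 24 h (1.48, SE 0.09; 21.2 against 7.63 CPM), at P10 (3.71, SE 0.32; 8.17 against 0.597) and at P20 (1.88, SE 0.25; 9.72 against 2.64), while its relative Sox3 was lower at 24 h. Sox2 changed by -0.20 (SE 0.03) at 24 h and 0.50 (SE 0.07) at P10.

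Markers of other cell types moved with the media, and their part in these results was not tested. The counts below stand beside 37.4% of all tested genes changed between EMM and Serum/LIF at P10, 26.0% at P20 and 44.0% at 24 h. The summed level of 7 fibroblast genes ran from 143 to 171 CPM in P10 Serum/LIF and 229 to 456 in P20 Serum/LIF, but 18.4 to 23.3 in P10 EMM, 9.72 to 12.9 in P20 EMM, 2.89 to 4.23 in P10 2i/LIF and 5.87 to 6.32 in P20 2i/LIF. Of these, 4 of 5 tested were lower in EMM than in Serum/LIF at both passages, while Thy1, a surface glycoprotein, was higher at P10 (1.14, SE 0.22) and at -0.17 (SE 0.22) at P20. Dcn was at 0 in both 2i/LIF groups and Postn at 0 in both EMM groups. The summed level of 7 trophectoderm genes ran from 567 to 662 in P10 Serum/LIF and 49.0 to 61.1 in P10 EMM, and from 320 to 436 and 98.6 to 104 at P20, with 4 of 6 tested lower in EMM each time and Elf5 at 0 in EMM. The sums of 11 neuroectoderm genes, of which 6 passed the filter, were lower in EMM at P10 (88.6 to 105, against 182 to 200 in Serum/LIF) and overlapped at P20 (127 to 133 against 118 to 131). In EMM against Serum/LIF, 1 was higher (Sox1) and 1 lower (Nes) at each passage. Of 9 primitive streak genes, 8 of them tested, 5 were below Serum/LIF in P10 EMM and 5 in P20 EMM, and 1 was above it at P10. Of 10 primitive endoderm genes, 9 of them tested, 1 was higher and 1 lower at each passage. Their sums overlapped at P10 (272 to 316 in EMM, 248 to 275 in Serum/LIF) and were lower in EMM at P20 (134 to 159 against 212 to 297). In the time course the fibroblast sums were 61.1 to 64.0 at 0 h and 42.6 to 50.2 at 24 h, and the trophectoderm sums were 185 to 200 and 318 to 329. The primitive endoderm sums were 184 to 209 at 0 h and 253 to 278 at 24 h, with 5 genes higher and 2 lower of 10 tested (median 0.55). Of 6 tested neuroectoderm genes, 4 were higher at 24 h and the other 2 did not pass (median 0.79), and the sums of the list overlapped (129 to 158 at 0 h, 148 to 162 at 24 h).

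The same markers also moved with 2i/LIF. In P20 EMM against P20 2i/LIF, beside 48.6% of tested genes changed, 7 primitive endoderm genes were higher and 1 lower of 9 tested (median 2.37), and 4 trophectoderm genes were higher and 2 lower of 6 (median 0.88). At P10, beside 45.1%, the counts were 3 and 2 for primitive endoderm and 2 and 3 for trophectoderm. The sums at P20 ran the other way. Primitive endoderm was at 134 to 159 CPM in EMM and 355 to 408 in 2i/LIF, and trophectoderm at 98.6 to 104 and 147 to 159. The P10 sums were 272 to 316 and 146 to 217 for primitive endoderm, and 49.0 to 61.1 and 81.6 to 87.4 for trophectoderm. In 2i/LIF against Serum/LIF, trophectoderm genes were lower in 4 of 6 and higher in 1 at P10 (median -2.36, beside 52.0% changed) and lower in 6 of 6 at P20 (median -2.78, beside 44.2%), all 5 tested fibroblast genes were lower at both, and 5 of 9 primitive endoderm genes were lower at both, with 2 and 1 higher. The primitive endoderm sums of 2i/LIF lay below those of Serum/LIF at P10 (248 to 275) and above them at P20 (212 to 297).

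Across the 18 passage libraries, which share media and passage, the genes paired off unevenly. As a description over log2 CPM, Pearson's r was 0.94 between Fgf5 and Pou3f1, 0.89 between Fgf5 and Sox3 and 0.86 between Zic2 and Zic5, but 0.09 between Fgf5 and Zic2 and -0.20 between Otx2 and Zic2. Across the 12 time-course libraries r was 0.97 between Otx2 and Zic2, 0.97 between Otx2 and Zic5, 0.98 between Zic2 and Zic5, and -0.31 between Fgf5 and Otx2. Otx2 thus ran with the Zic genes over the first day and not over the passages. Among 12703 genes ranked over the passage libraries, those most like each gene were Sfrp2 (r = 0.966) for Fgf5, Nup205 (0.948) for Otx2, Rgs16 (0.992) for Pou3f1, Zfp651 (0.938) for Zic2, Vrtn (0.953) for Zic5 and Pde3b (0.955) for Sox3. In the time course the same pairs gave 0.00, 0.35, 0.86, -0.53, 0.95 and -0.35, so the likeness of Rgs16 and Vrtn was seen in both tables.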

How the data were processed

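RNA-seq of E14tg2a ESCs was taken as gene counts in 2 tables, with 12 time-course and 18 passage libraries grouped by their labels. For the time course, the authors deposited raw read counts per gene. For the passages, the authors deposited estimated counts per gene (expected counts), of which 9.982% were not whole, and they were rounded before testing. The submitters' processing notes name STAR, featureCounts and DESeq2 for the first table and STAR, Salmon and DESeq2 for the second, with mm10, while the study's methods name STAR and HTSeq. The annotation used for counting is not given in the sources used here. Passages used a stranded library kit, and the strand setting used in counting is likewise not given.

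Genes were filtered with filterByExpr by group (16049 and 16054 tested), scaled with TMM and fitted with the quasi-likelihood test of edgeR 4.0.16 (R 4.3.3), all groups of a table in 1 model without covariates. Adjusted p-values are Benjamini-Hochberg over all tested genes, with a threshold of 0.01. Changes of a difference between passages were fitted as contrasts in the same model. The code was tested on simulated data with known changes in 200 genes. Floors of 3 counts per library cover counting error only, and depth (24074132 to 35301962 and 6944904 to 27912928 counts) limits Fgf5 and Pou3f1 in 2i/LIF. No pair of libraries agreed within sampling noise. The replicates are described in the study's methods as independent experiments, and p-values measure the spread between these libraries.

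The 6 genes and the lists (other formative and primed epiblast, naive, core, primitive streak, neuroectoderm, primitive endoderm, trophectoderm, fibroblast, FGF, gene families) were chosen with earlier results of these data known. Beside the 6 genes, the text names the genes most like each of them by Pearson's r of log2 CPM (prior count 2), and takes most other names from the members of each list that rose or fell most among those past the test, not all of which are named, and from the gene families. Some members of the lists are not reported here by name. Dnmt3a, Dnmt3b and Fgfr2, Pou5f1 and Spry4 at P20, the markers given as at 0 (Dcn and Elf5), and the list values of P20 against P10 EMM were named after their values were seen.

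Each result was recomputed with scaling by DESeq2 size factors, with scaling by library totals, without the low-count filter (total count of at least 1), with a minimum of 10 counts required of all libraries, and with the Wald test of DESeq2 1.42.0. The replicate block, fits of only the groups compared, counts not rounded, an added threshold of 1 on the log2 fold change, an adjusted p under 0.05, and each library left out were also tried. A block by the numbers in the column names, which run from 2 to 4 in EMM, was added after the data were examined. As a check of pairing, deviations from the group means of libraries with the same number in their titles correlated above 0.1 for every number only between P10 and P20 2i/LIF (0.299, 0.134 and 0.224). By the column names, the 2 numbers that EMM 24 h shares with Serum/LIF were also above 0.1 (0.28 and 0.152), which is too few pairs for the check.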

Additional observations from a re-analysis of the deposited data

Results flagged for a closer look

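The difference of EMM from Serum/LIF changed between P10 and P20, by a contrast in edgeR's quasi-likelihood model, for Fgf5 (3.90), Pou3f1 (3.25), Zic2 (2.72), Zic5 (2.41) and Otx2 (1.68), all on the log2 scale and all upward at P20. The mean CPM of Fgf5 in EMM and Serum/LIF was 2.27 and 10.7 at P10 and 7.78 and 2.6 at P20.

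The difference of EMM from 2i/LIF changed upward at P20 for Zic2 (4.25), Zic5 (3.13), Pou3f1 (2.30) and Sox3 (1.73). For Fgf5, which had 0 counts in every P20 2i/LIF library, the same contrast had an edgeR adjusted p of 0.000192, and its fold is not given.

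The difference of 2i/LIF from Serum/LIF changed for Otx2 (2.12, upward at P20) and Zic2 (-1.53, downward at P20). The mean CPM of Zic2 in 2i/LIF was 45.7 at P10 and 14.7 at P20.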

How the results depend on the processing

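Of 102 values (6 genes in 17 comparisons), 74 passed the test. Under settings other than leaving out 1 library, 919 of 982 values kept their direction and side of the threshold, 26 lost the call, 31 gained one and 6 changed sign. These 982 include the values of the main fit read at the other thresholds (adjusted p under 0.05, or an added fold threshold), which could not change sign. With 1 library left out, 670 of 720 were kept, 33 lost, 4 gained and 13 changed sign. No sign change was of a gene that had passed the test.

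With a log2 fold change above 1 also required, the count of genes past the test was 0 at 9 h and 3 at 24 h, beside 3.50% and 4.69% of tested genes lower. It was 0 from 3 h to 9 h and 0 from 9 h to 24 h, where the share of all tested genes is not given here. With at least 10 counts in every passage library, only Otx2, Zic2 and Zic5 were tested, and the counts were 2 for EMM against Serum/LIF at P10 and 1 at P20, 3 and 3 for EMM against 2i/LIF, 3 and 2 for 2i/LIF against Serum/LIF, and 2, 1 and 3 for P20 against P10 in EMM, Serum/LIF and 2i/LIF, with 3 and 2 for the changes of the EMM difference from Serum/LIF and from 2i/LIF. That fit tested 11166 genes. It called 4503 and 3393 of them for EMM against Serum/LIF, 5480 and 5654 for EMM against 2i/LIF, and 6110 and 4883 for 2i/LIF against Serum/LIF. For P20 against P10 it called 3436, 888 and 3849, and for the changes of difference 1949 and 4461. With only the groups compared, P20 against P10 2i/LIF kept 1 of 4 tested genes, beside 1790 of 13670 called. Otx2 from 3 h to 9 h (0.33, edgeR adjusted p = 0.0153) and Zic2 in P20 2i/LIF against P20 Serum/LIF (-0.75, edgeR adjusted p = 0.0131) also lost their calls. Leaving out 1 library gave 2 to 5 from 3 h to 9 h, 2 to 5 for P20 against P10 2i/LIF, and 3 to 5 for the change of the EMM difference from 2i/LIF.

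Pou3f1 in P20 EMM against P20 Serum/LIF, at 0.00, became -0.02 with DESeq2 size factors, -0.09 with library totals alone, -0.02 with DESeq2, -0.01 with the replicate block and -0.01 with only the groups compared, and ran from -0.09 to 0.07 with 1 library left out. In P20 against P10 Serum/LIF, Zic2 became 0.00 with library totals alone and ran from -0.24 to 0.05 with 1 library left out, and Zic5 ran from -0.04 to 0.19. Sox3 from 3 h to 9 h ran from -0.02 to 0.11, and Pou3f1 in P20 against P10 2i/LIF from -0.30 to 0.09. The cause of these changes was not tested, apart from the fewer genes or libraries that a setting leaves.

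With the replicate block, Sox3 passed the test against Serum/LIF at 3 h (edgeR adjusted p = 0.00444) and 9 h (edgeR adjusted p = 0.00556), and no other call changed. In these comparisons the deviations by title number did not correlate above 0.1 for every number. In P20 against P10 2i/LIF, where they did, the block changed no call. Libraries of different numbers were not compared, so whether the numbers pair these cultures is not known. With the block by column names, Otx2 from 3 h to 9 h lost its call (edgeR adjusted p = 0.0124). Library totals alone moved the median of all genes by over 0.1 in P20 2i/LIF against Serum/LIF alone (from -0.0061 to -0.124).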
